A study of Homo sapiens with 6 samples.

Results

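The genes described here are 45 genes named at chromosomal loci that genome-wide association studies have tied to type 2 diabetes, leaving out genes listed for core beta cell function. They were taken from the deposited table by symbol, and all 45 were found among its 26485 rows. Bulk RNA sequencing was done on EndoC-βH1, an established human cell line derived from pancreas that behaves as insulin-secreting beta cells. In 3 libraries the cells had been transduced with lentiCRISPRv2, a lentiviral vector that carries the Cas9 nuclease and which here held 1 guide, sgZHX3-3, aimed at the first coding exon of the gene ZHX3. Their genotype label is ZHX3 KO. In the other 3 libraries, named Empty with the genotype label WT, the same vector held no guide. Cells of both groups were selected with antibiotic and kept as stable lines. Biological replicates are numbered 1 to 3 in each group, with nothing on whether each came from its own transduction, so spread and p-values may reflect only differences between cultures.

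An association signal marks a stretch of DNA, most often outside the coding sequence, and the locus is usually named after a nearby gene that need not be the one it acts through. Many such loci act on insulin secretion rather than on insulin sensitivity, which is why their genes are studied in beta cells. The genes themselves belong to no single pathway: they include transcription factors, tRNA and RNA modifiers, signalling proteins, lipid carriers and enzymes.

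The libraries held between 45101454 and 61051884 counts. All 14 beta cell marker genes passed the filter on low counts. Of these, 8 were called higher and 0 lower (9 and 0 at an unadjusted p below 0.05), against 7.11% and 4.98% of all genes tested. Their summed level ranged from 37408 to 45511 CPM in the sgZHX3-3 libraries, against 32190 to 40343 CPM in the Empty libraries. CPM is the field's usual count scaled to a common library total. The part of that level in the results below was not tested. Of genes that mark other cell types, the endothelial genes CDH5 and KDR, the T cell gene CD3E and the acinar gene PNLIP had 0 counts in every library. Other markers on these lists were present. The alpha cell gene TTR averaged 1196 CPM, the ductal gene KRT19 52.0 CPM, the acinar gene CPA1 39.3 CPM and the immune gene CD68 17.7 CPM. CPA1 and the alpha cell gene LOXL4 were called higher, and the alpha cell gene IRX2 lower (edgeR adjusted p = 0.0145, 0.00126 and 0.00728). ZHX3 itself had 7465, 8976 and 11046 counts in the libraries labelled sgZHX3-3, against 4938, 6484 and 4969 counts in the libraries labelled Empty. Its RNA was thus higher under the knockout label (log2 fold change 0.75, SE 0.0566, edgeR adjusted p = 1.62e-05), the opposite of a loss of transcript, so the groups go by their labels throughout. ZHX3 protein was not analysed here. The Empty libraries were not uniform: the summed level of 8 heat shock and oxidative stress genes was 619, 643 and 574 CPM in sgZHX3-3 libraries 1, 2 and 3, against 876, 1547 and 1737 CPM in Empty 1, 2 and 3. Each call below is therefore also given without Empty 2 and 3 where that ends it. The sgZHX3-3 libraries were uneven too. The chi-square distance between libraries, averaged over genes, was 4.59 between sgZHX3-3 libraries 1 and 2. It was 21.3 and 12.9 from these to sgZHX3-3 library 3. Empty 1 lay nearer to sgZHX3-3 library 1 (19.1) than to Empty 2 (23.3) or Empty 3 (22.4).

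In the libraries labelled sgZHX3-3, 10 of the locus genes had higher RNA and 0 had lower. A total of 40 members passed the filter on low counts; 10 of these (25%) were called higher, against 7.11% of all 16199 genes tested, and 0 were called lower, against 4.98% of all genes (edgeR, adjusted p below 0.05). In bulk RNA, fewer or more cells that express a gene and less or more RNA per cell cannot be told apart. At an unadjusted p below 0.05 the members' counts were 15 higher and 1 lower (RASGRP1), and DESeq2 and limma-voom also called 0 members lower. The share of all genes at that unadjusted threshold was not counted, here or for the gene lists, so these counts have no background beside them. The called genes were ZMIZ1, HMGA2 and TLE4 among the transcription regulators, DUSP9, CAMK1D and IRS1 among the signalling genes, ANK1 and LPP among the cytoskeletal genes, and ST6GAL1 and ZFAND3. Apart from HMGA2 the folds ranged from 1.16-fold for ZFAND3 to 1.49-fold for DUSP9. The median log2 fold change of the 40 tested members was 0.16, against -0.0020 over all genes tested, and 28 members had a positive and 12 a negative value. The members' median was smaller in 2 fits described below. It was 0.071 with a trend of fold change with gene span removed, and 0.074 with Empty 2 and 3 left out. The 3 libraries labelled sgZHX3-3 lay all above the 3 labelled Empty for 13 members, against 16.0% of all genes, and all below for 2 members, against 16.0% of all genes. Together the 45 genes took 0.289%, 0.295% and 0.298% of the counts in the sgZHX3-3 libraries, against 0.266%, 0.271% and 0.261% in the Empty libraries. Of all called genes 58.8% were higher, a share that was 41.5% with library totals as the only scaling; under that scaling 9 members were higher and 0 lower.

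**Figure D1:**
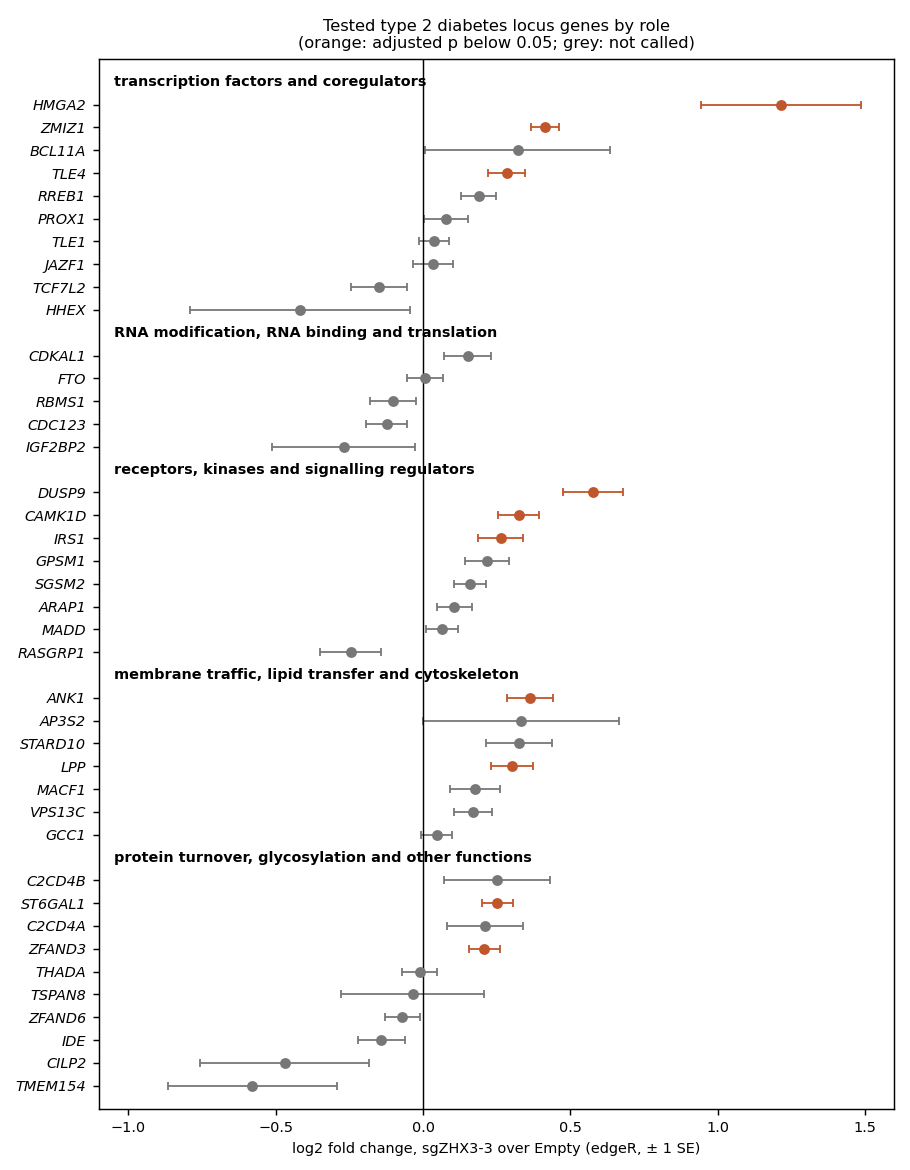
Log2 fold change (x axis, sgZHX3-3 over Empty) of the 40 tested members, in rows grouped by role; points are edgeR estimates, bars are 1 standard error, and orange marks an adjusted p below 0.05. The orange points all lie to the right of 0, and the traffic and cytoskeleton group is the one in which each tested member does.

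**Figure D2:**
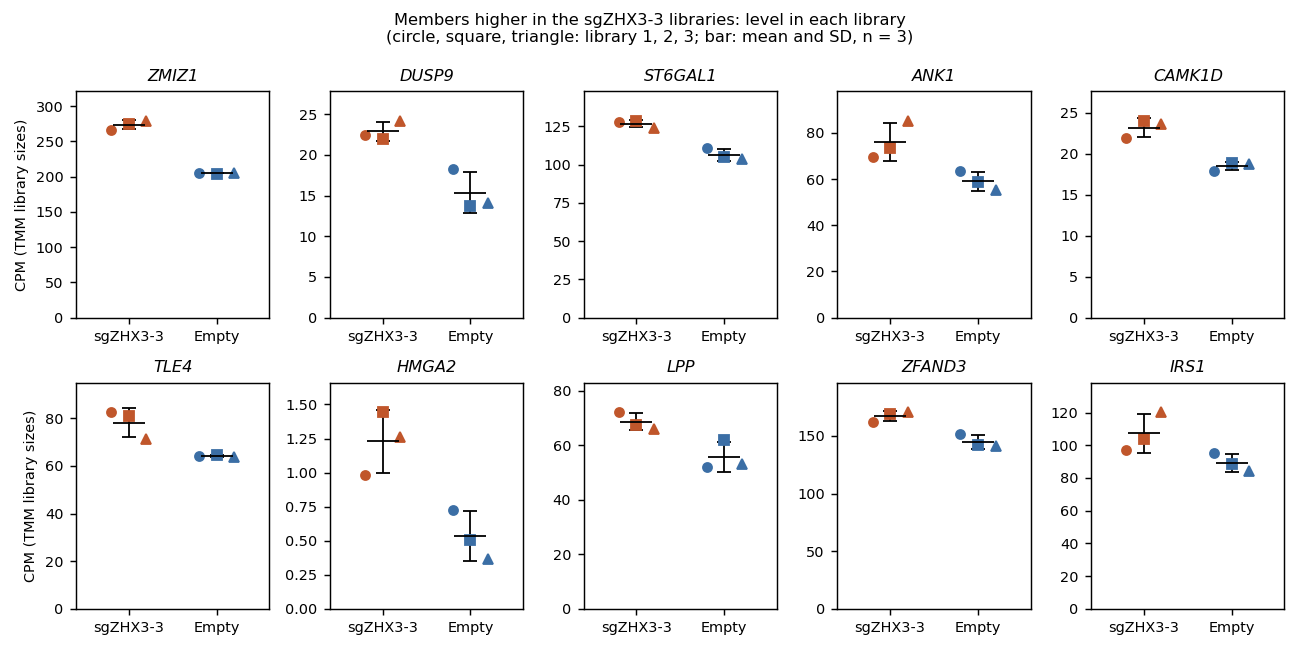
Level in CPM (y axis, from 0) of the 10 called members in each library, sgZHX3-3 at the left and Empty at the right of each panel; symbols are libraries 1, 2 and 3, and the bar is the mean with its SD (n = 3). In each panel the 3 sgZHX3-3 libraries lie above the 3 Empty libraries.

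The members differed widely in level. Levels between genes are compared here as CPM per kilobase of merged exon, a scale that divides by gene length. STARD10, which carries phospholipids between membranes, was the highest at 65.5, above 96.8% of all tested genes of known length, followed by ZFAND3 (38.7), ZMIZ1 (21.7), GCC1 (19.4) and MADD (17.8). TCF7L2, at 1.14, lay above 23.4% of tested genes. A group of 8 tested members had a mean under 2 CPM, among them HHEX, IGF2BP2, BCL11A, TMEM154 and HMGA2. Of the 5 members that did not pass the filter, 4 had no library above 3 counts, the level that a count of 0 still allows, and UBE2E2 was above it in every library. PPARG, the nuclear receptor of fat cells, had 0 counts in every library, which allows up to 3 counts per library or 0.0498 to 0.0671 CPM. IGF2BP1 had 2 counts, all in sgZHX3-3 library 3. DGKB, a diacylglycerol kinase, had 0, 2 and 2 counts in the sgZHX3-3 libraries, against 0 counts in each Empty library. DGKB and IGF2BP1 thus had counts only in sgZHX3-3 libraries, too few to compare. MTNR1B, the melatonin receptor at one of the strongest fasting glucose loci, had 2, 2 and 1 counts in the sgZHX3-3 libraries, against 1, 3 and 1 counts in the Empty libraries. UBE2E2, a ubiquitin-conjugating enzyme, had 5, 8 and 8 counts in the sgZHX3-3 libraries, against 4, 13 and 8 counts in the Empty libraries. No fold is given for these genes. Between replicates the tested members varied about as much as other genes, with a median coefficient of variation of 6.91% in sgZHX3-3 and 5.83% in Empty, against 6.47% and 6.69% over all genes tested.

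**Figure D3:**
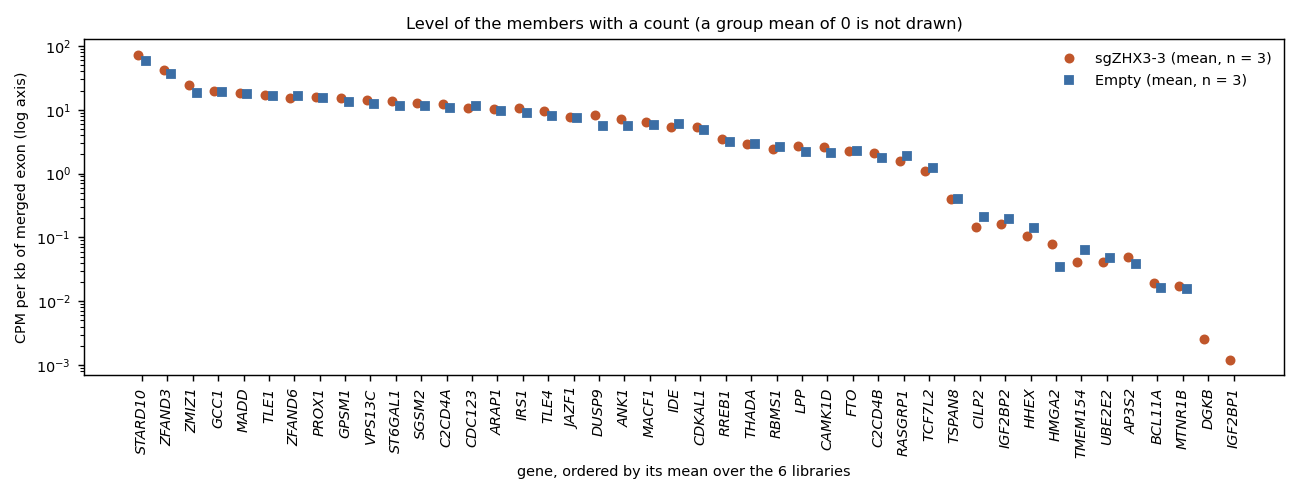
Mean level (y axis, CPM per kilobase of merged exon, log scale) of each member with a count, ordered along the x axis; circles are sgZHX3-3 and squares Empty (means of 3 libraries). Over the 6 libraries the members range from 65.5 for STARD10 to 0.000607 for IGF2BP1, and a group at 0 (Empty for DGKB and IGF2BP1) is not drawn.

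Of the transcription factors and coregulators, 3 of 10 tested rose and 0 fell, against 7.11% and 4.98% of all genes tested. This and the role groups below divide the calls already given and are no separate results. ZMIZ1, a coactivator related to the PIAS family of SUMO ligases, had 266, 275 and 279 CPM in the sgZHX3-3 libraries, against 205, 204 and 206 CPM in the Empty libraries. The Empty values were nearly equal and lay well below the others. The log2 fold change was 0.42 (SE 0.0479, edgeR adjusted p = 0.000236), the smallest adjusted p among the members, and ZMIZ1 was still called whichever library was omitted, and against Empty 1 alone (0.41, adjusted p = 0.0210). The gene (ENSG00000108175.16) lies on the plus strand of chromosome 10 from 79069035 to 79316528 in GRCh38.

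HMGA2, an architectural chromatin protein mostly known from embryonic tissue and tumours, showed the largest fold of the members at a very low level. It had 44, 72 and 76 counts in the sgZHX3-3 libraries, against 34, 30 and 18 counts in the Empty libraries. This corresponds to 1.23 ± 0.231 CPM in sgZHX3-3 and 0.533 ± 0.182 CPM in Empty (SD, n = 3 each), a log2 fold change of 1.21 (SE 0.271, edgeR adjusted p = 0.0130). The groups did not overlap, but at such counts the spread was wide. The call was lost without sgZHX3-3 library 2 (adjusted p = 0.0680), Empty 2 (0.0588) or Empty 3 (0.0680), and without Empty 2 and 3 together the value was 0.76 (0.345). HMGA2 (ENSG00000149948.13) spans 65824131 to 65966295 on the plus strand of chromosome 12.

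Of the 2 Groucho family members, TLE4 rose and TLE1 did not pass. TLE4 and TLE1 are corepressors that do not bind DNA themselves and are recruited by factors such as the TCF proteins. TLE4 was at 82.6, 80.9 and 71.1 CPM in the sgZHX3-3 libraries, against 64.2, 64.7 and 63.8 CPM in the Empty libraries (log2 fold change 0.28, SE 0.0630, edgeR adjusted p = 0.0128). The 3 Empty values were nearly equal, and the lowest sgZHX3-3 value was that of library 3. TLE1 was at 82.9, 82.6 and 83.4 CPM in sgZHX3-3, against 83.5, 80.4 and 78.7 CPM in Empty, and did not pass (0.04, SE 0.0519, adjusted p = 0.686). The ratio of TLE4 to TLE1 within a library was 0.996, 0.979 and 0.853 in sgZHX3-3, against 0.769, 0.805 and 0.8099 in Empty. These do not overlap, but this pair was chosen after its values were seen, so its ratio adds no evidence to the call of TLE4. The exact permutation test gave p = 0.1, the smallest that 3 against 3 libraries allow (0.25 adjusted over 5 ratios, this one included). TLE4 lost its call without sgZHX3-3 library 2 (adjusted p = 0.0839) or Empty 3 (0.0624), and with Empty 2 and 3 left out its fold was as large (0.29) but did not pass (0.197). TLE4 (ENSG00000106829.18) spans 79571773 to 79726882 on the plus strand of chromosome 9.

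The RefSeq promoter windows of these 2 related genes and of DUSP9, the short gene with the largest fold among the well-expressed members, are shown because ZHX proteins are known to bind NF-YA, the subunit of a factor that recognises the CCAAT box. Each line gives the 250 bases before the RefSeq start (build GRCh38.p14), read 5′ to 3′ along the gene, with CCAAT or its reverse complement ATTGG in capitals. The windows are chr9:79572927-79573176 on the plus strand for TLE4, chr9:81689548-81689797 on the minus strand for TLE1, and chrX:153646953-153647202 on the plus strand for DUSP9.
TLE4: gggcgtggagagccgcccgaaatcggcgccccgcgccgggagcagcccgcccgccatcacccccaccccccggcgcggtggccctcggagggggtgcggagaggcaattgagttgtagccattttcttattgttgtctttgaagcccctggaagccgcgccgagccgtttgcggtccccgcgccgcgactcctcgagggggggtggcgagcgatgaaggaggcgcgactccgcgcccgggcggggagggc
TLE1: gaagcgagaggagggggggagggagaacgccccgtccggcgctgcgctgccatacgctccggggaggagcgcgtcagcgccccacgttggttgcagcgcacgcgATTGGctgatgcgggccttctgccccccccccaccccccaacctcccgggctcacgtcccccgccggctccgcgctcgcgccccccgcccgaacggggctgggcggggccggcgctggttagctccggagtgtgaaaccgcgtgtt
DUSP9: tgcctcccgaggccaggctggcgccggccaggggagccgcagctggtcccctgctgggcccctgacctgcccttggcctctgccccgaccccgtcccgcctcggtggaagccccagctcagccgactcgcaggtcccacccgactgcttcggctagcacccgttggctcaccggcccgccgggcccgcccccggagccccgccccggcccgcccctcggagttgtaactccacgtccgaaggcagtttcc
The TLE1 window holds 1 match, ATTGG beginning 146 bases before the start, and the other two hold none. RefSeq windows were found for 39 members, of which 10 (25.6%) held a match on either strand, against 32.0% of all 35116 windows in that table. Among the 7 called members with a window, 0 held one. For 22 of the 39 members the window lies inside the span of the gene in GENCODE 29, so that longer transcripts begin upstream of it. This holds for DUSP9, whose RefSeq start lies 4711 bases after the GENCODE start of the gene, and for TLE4 (1404 bases), but not for TLE1. These are descriptions of letters in 1 window per gene; the start used in these cells was not determined.

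The other tested transcription regulators did not pass. RREB1, a zinc finger protein that binds RAS-responsive elements, came closest, with 60.3, 60.5 and 61.6 CPM in the sgZHX3-3 libraries, against 49.6, 55.3 and 55.0 CPM in the Empty libraries. The groups did not overlap (0.19, SE 0.0593, edgeR adjusted p = 0.0552), and the DESeq2 fit called it (0.0379). PROX1, a homeobox factor of pancreas and lymphatic development, was at 0.08, the zinc finger protein JAZF1 at 0.03 and the zinc finger repressor BCL11A at 0.32 with an SE of 0.313. TCF7L2, the Wnt effector at the locus with the strongest common association, had 7.83, 7.18 and 6.92 CPM in the sgZHX3-3 libraries, against 7.78, 8.47 and 8.004 CPM in the Empty libraries. Only sgZHX3-3 library 1 reached into the Empty range, and the gene did not pass (-0.15, SE 0.0958, adjusted p = 0.3395). HHEX is described with its locus below.

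Of the 5 tested genes of RNA modification, RNA binding and translation, 0 passed with edgeR. Over all genes tested, 7.11% were called higher and 4.98% lower, so 0 among 5 genes does not set this group apart. The count was also 0 at an unadjusted p below 0.05, with DESeq2 and with limma-voom. CDKAL1, which modifies the lysine tRNA, was at 26.2, 25.2 and 21.9 CPM in sgZHX3-3, against 22.9, 21.9 and 21.0 CPM in Empty (log2 fold change 0.15, edgeR adjusted p = 0.233). FTO, an RNA demethylase, differed least of the members, with a log2 fold change of 0.01 (SE 0.0613). The RNA-binding protein genes RBMS1 and IGF2BP2 were at -0.10 and -0.27. IGF2BP2 had few counts, 26, 35 and 59 in sgZHX3-3 and 41, 53 and 49 in Empty. CDC123 belongs here too and is described with its locus.

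Of the 8 tested signalling genes, 3 rose and 0 fell, against 7.11% and 4.98% of all genes tested. DUSP9, a phosphatase that inactivates MAP kinases, had 22.5, 22.0 and 24.2 CPM in the sgZHX3-3 libraries, against 18.3, 13.8 and 14.0 CPM in the Empty libraries. Empty 1 lay between the other Empty libraries and the sgZHX3-3 group. The log2 fold change was 0.58 (SE 0.102, edgeR adjusted p = 0.00357); with a single library left out it stayed called and ranged from 0.50 to 0.72, while against Empty 1 alone it was 0.32 (adjusted p = 0.191). DUSP9 (ENSG00000130829.17) lies on the plus strand of chromosome X from 153642492 to 153651326.

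IRS1, the adaptor that passes on the signal of the insulin receptor, had 97.3, 104 and 120.3 CPM in the sgZHX3-3 libraries, against 95.2, 88.3 and 84.6 CPM in the Empty libraries. sgZHX3-3 library 1 and Empty 1 nearly met. The log2 fold change of 0.26 (SE 0.0761, edgeR adjusted p = 0.0399) was the call nearest to the threshold. It was lost without any library other than Empty 1 and sgZHX3-3 library 1, with adjusted p from 0.101 to 0.179, with library totals as the only scaling (0.0634), and with Empty 2 and 3 left out (0.17, 0.514). IRS1 (ENSG00000169047.5) spans 226731317 to 226799759 on the minus strand of chromosome 2. SGSM2, which regulates RAB GTPases, had 120.4, 127 and 132 CPM in sgZHX3-3, against 117, 112 and 111 CPM in Empty, without overlap, and did not pass (0.16, adjusted p = 0.0740). GPSM1, a modulator of G protein signalling, likewise had groups that did not overlap and did not pass (0.22, adjusted p = 0.0753). Both passed without Empty 1 (0.0299 and 0.0356), and GPSM1 also without sgZHX3-3 library 1 (0.0435) and with DESeq2 (0.04998). MADD, an exchange factor for the secretory RAB3 proteins, was at 0.07. RASGRP1, a RAS exchange factor, was the signalling member with the lowest value: it had 8.59, 9.60 and 10.5 CPM in sgZHX3-3, against 12.7, 10.7 and 10.8 CPM in Empty, without overlap, and did not pass (-0.25, SE 0.103, adjusted p = 0.138).

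Among the 7 genes of membrane traffic, lipid transfer and the cytoskeleton, 2 rose and 0 fell, against 7.11% and 4.98% of all genes tested. All 7 had positive log2 fold changes, as did 8023 of all 16199 genes tested. ANK1, an ankyrin that ties membrane proteins to spectrin, had 69.6, 73.3 and 85.2 CPM in the sgZHX3-3 libraries, against 63.4, 58.6 and 55.3 CPM in the Empty libraries (log2 fold change 0.36, SE 0.0778, edgeR adjusted p = 0.0104). It lost its call without Empty 2 (0.0508) or Empty 3 (0.0680) and with both left out (0.26, 0.317). ANK1 (ENSG00000029534.20) lies on the minus strand of chromosome 8. LPP, a LIM protein of focal adhesions, had 72.2, 67.6 and 66.2 CPM in sgZHX3-3, against 52.0, 61.9 and 53.1 CPM in Empty, with Empty 2 closest to the other group. Its log2 fold change was 0.30 (SE 0.0713, adjusted p = 0.0168) and was 0.40 with Empty 2 and 3 left out, where it just missed the threshold (0.0520). Without sgZHX3-3 library 1 (0.0545), sgZHX3-3 library 2 (0.0649) or Empty 3 (0.0921) it was not called. LPP (ENSG00000145012.13) spans 188153284 to 188890671 on the plus strand of chromosome 3. MACF1, which links actin to microtubules, had 252, 271 and 262 CPM in sgZHX3-3, against 197, 264 and 234 CPM in Empty; it did not pass (0.18, adjusted p = 0.199), but passed with Empty 2 and 3 left out (0.41, 0.0272). The golgin gene GCC1 was at 0.05. AP3S2, a subunit of the AP-3 adaptor, had 14 to 25 counts in a library. The table has a separate row for the overlapping readthrough gene C15orf38-AP3S2, and nothing states how reads in both genes were assigned, so this count is uncertain.

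Of the 10 tested genes of protein turnover, glycosylation and other functions, 2 rose and 0 fell, against 7.11% and 4.98% of all genes tested. ST6GAL1, which adds sialic acid to glycoproteins, had 128, 129 and 124 CPM in the sgZHX3-3 libraries, against 111, 105 and 104 CPM in the Empty libraries (log2 fold change 0.25, SE 0.0525, edgeR adjusted p = 0.00931). It lost its call without sgZHX3-3 library 2 (0.0676), Empty 2 (0.0521) or Empty 3 (0.0645), and with Empty 2 and 3 left out (0.19, 0.259). ST6GAL1 (ENSG00000073849.14) spans 186930485 to 187078553 on the plus strand of chromosome 3. ZFAND3, a zinc finger protein reported to act on the insulin gene, had 162, 169 and 171 CPM in sgZHX3-3, against 152, 142 and 141 CPM in Empty (0.21, SE 0.0529, adjusted p = 0.0234). Leaving out any library other than Empty 1 and sgZHX3-3 library 1 ended that call, with adjusted p from 0.0532 to 0.128, as did leaving out Empty 2 and 3 (0.14, 0.406). ZFAND3 (ENSG00000156639.11) spans 37819499 to 38154624 on the plus strand of chromosome 6. Its relative ZFAND6 was at -0.07 and did not pass. TMEM154, a membrane protein of unknown role, had the lowest value of all members, -0.58 with an SE of 0.287, from 16, 20 and 40 counts in sgZHX3-3 and 31, 48 and 34 counts in Empty (adjusted p = 0.207). CILP2, a cartilage matrix protein, was at -0.47 with similarly few counts, the tetraspanin TSPAN8 at -0.04 and THADA at -0.01.

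At the 4 loci with more than 1 member, CAMK1D was the only member called. At the loci without a call, the neighbours had log2 fold changes of the same sign with all libraries. With Empty 2 and 3 left out, IDE, C2CD4A and C2CD4B changed sign while HHEX and VPS13C did not, so this was not stable. CAMK1D, a calcium and calmodulin-dependent kinase, had 21.9, 24.0 and 23.6 CPM in the sgZHX3-3 libraries, against 17.96, 18.9 and 18.7 CPM in the Empty libraries. This rise of 0.32 on the log2 scale (SE 0.0699, edgeR adjusted p = 0.0109) was lost without sgZHX3-3 library 2 (0.0746) and with Empty 2 and 3 left out (0.37, 0.133). CAMK1D (ENSG00000183049.12) spans 12349482 to 12835545 on the plus strand of chromosome 10. CDC123, its neighbour on chromosome 10, which helps to assemble the initiation factor eIF2, lay the other way, with 25.9, 26.4 and 24.1 CPM in sgZHX3-3, against 29.4, 26.9 and 26.9 CPM in Empty, and did not pass (-0.12, adjusted p = 0.277). The ratio of CAMK1D to CDC123 was 0.845, 0.9096 and 0.982 in the sgZHX3-3 libraries, against 0.6105, 0.7025 and 0.697 in the Empty libraries. No ratio of one group reached the other (exact permutation p = 0.1, the smallest possible, and 0.25 adjusted over 5 ratios). CAMK1D was already called, so this ratio is no separate evidence for its call. The other ratios within shared loci overlapped between the groups. The two-sided exact permutation test gave p = 0.2 for STARD10 to ARAP1 and p = 0.9 for C2CD4A to VPS13C. The ratio of C2CD4A to C2CD4B ranged from 10.2 to 15.16 in sgZHX3-3, against 12.94 to 13.62 in Empty.

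On chromosome 11, STARD10 had 243, 264 and 304 CPM in the sgZHX3-3 libraries, against 256, 195 and 197 CPM in the Empty libraries. Empty 1 lay inside the sgZHX3-3 range, and the gene did not pass (log2 fold change 0.33, SE 0.113, edgeR adjusted p = 0.0956); it passed without Empty 1 (0.47, 0.00135) and with DESeq2 (0.0123). The adjoining ARAP1 was at 89.6, 91.6 and 100.9 CPM in sgZHX3-3 and 90.9, 86.5 and 84.8 CPM in Empty (0.11, adjusted p = 0.275). These genes lie on the same strand and share 725 exon bases in GENCODE 29, 19.5% of those of STARD10, so both counts are uncertain. ANK1 (7.8% of its exon bases), HMGA2 (2.49%) and LPP (0.901%) overlap antisense genes, and TLE4 (3.09%) a pseudogene; whether the counting used strand is not stated. On chromosome 15, C2CD4A, a nuclear protein induced by inflammatory signals, had 40.8, 41.5 and 46.3 CPM in sgZHX3-3, against 46.3, 34.1 and 30.9 CPM in Empty (0.21, adjusted p = 0.327). Empty 1 lay at the top of the sgZHX3-3 range; C2CD4A passed without it (0.40, 0.00296) and was at -0.11 when Empty 2 and 3 were left out. Its paralog C2CD4B, at 1.92 against 11.6 CPM per kilobase for C2CD4A, had 2.77, 4.07 and 3.05 CPM in sgZHX3-3 and 3.40, 2.64 and 2.30 CPM in Empty, and did not pass (0.25, SE 0.1805). VPS13C, a protein that moves lipids between membranes, had 282, 280.3 and 264 CPM in sgZHX3-3, against 227, 269.9 and 238 CPM in Empty; it overlapped and did not pass (0.17, adjusted p = 0.108), except without Empty 2 (0.0406).

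The other locus on chromosome 10 joins HHEX, a homeobox gene that in mouse islets marks delta cells, and IDE, a protease that degrades insulin. HHEX had 18, 8 and 14 counts in the sgZHX3-3 libraries, against 17, 21 and 16 counts in the Empty libraries, and did not pass (log2 fold change -0.42, SE 0.374, edgeR adjusted p = 0.506). IDE was at 43.6, 42.5 and 37.2 CPM in sgZHX3-3, against 40.7, 48.7 and 46.5 CPM in Empty, with Empty 1 in the middle of the other group (-0.14, adjusted p = 0.268).

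**Figure D4:**
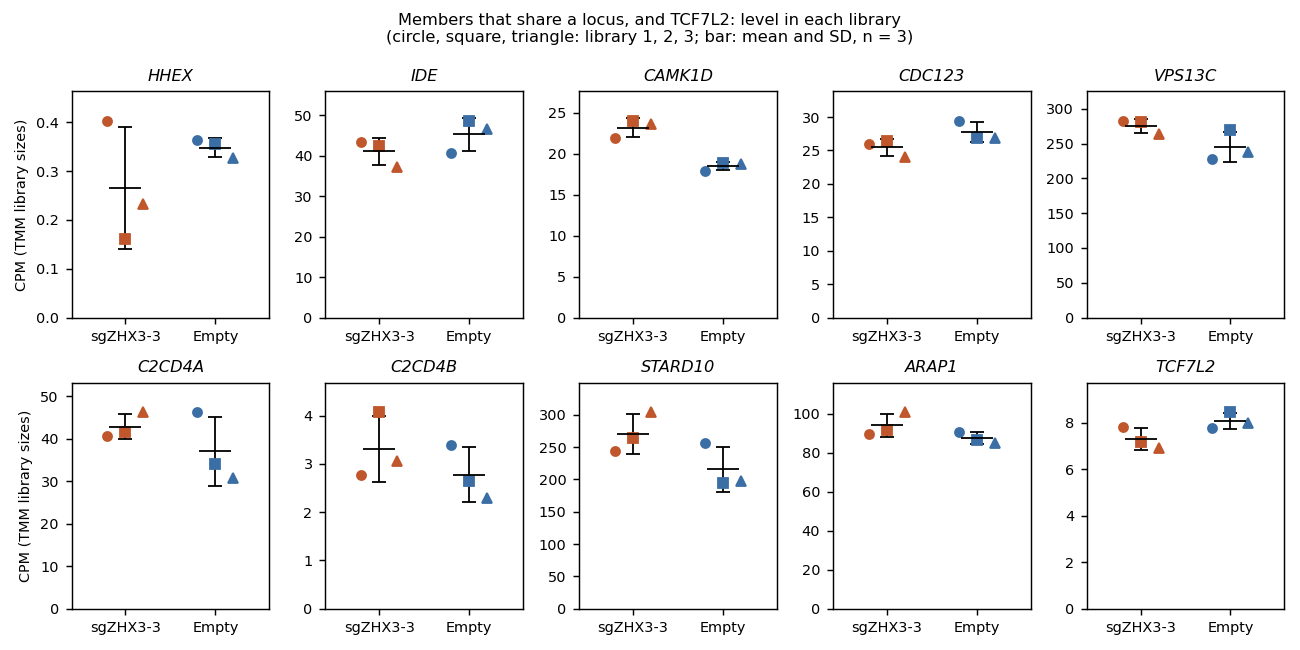
Level in CPM (y axis, from 0) in each library for the members that share a locus and for TCF7L2, sgZHX3-3 at the left and Empty at the right of each panel; symbols are libraries 1, 2 and 3, and the bar is the mean with its SD (n = 3). CAMK1D is the panel in which the groups lie farthest apart for their spread, and Empty 1 (circle) lies apart from Empty 2 and 3 for STARD10, C2CD4A and IDE.

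Gene span, the distance from start to end of a gene in GENCODE 29, moved with the result. Over all genes tested, 32.3% of those spanning over 300 kb and 11.6% of those of 100 to 300 kb were higher, while 5.70% of those of 30 to 100 kb and 4.86% of shorter ones were. Among the members, 3 of 9 over 300 kb, 5 of 14 of 100 to 300 kb, 1 of 11 of 30 to 100 kb and 1 of 6 shorter ones were higher. The share of the members over 300 kb was thus near that of all genes of their span. Those 3 were CAMK1D (486.1 kb), LPP (737.4 kb) and ZFAND3 (335.1 kb), and once a trend of fold change with span had been removed their log2 fold changes were 0.11 (edgeR adjusted p = 0.361), 0.02 (0.902) and 0.05 (0.626). ANK1 (243.5 kb) was at 0.25 (0.0587) in that fit. The other 6 called members kept their call there: ZMIZ1 was at 0.30 (0.00232), DUSP9 at 0.58, HMGA2 at 1.17, TLE4 at 0.23, IRS1 at 0.28 and ST6GAL1 at 0.20. Long members without a call include CDKAL1 (697.9 kb), FTO (456.8 kb), THADA and JAZF1. The part of span in these values was not tested beyond that fit.

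**Figure D5:**
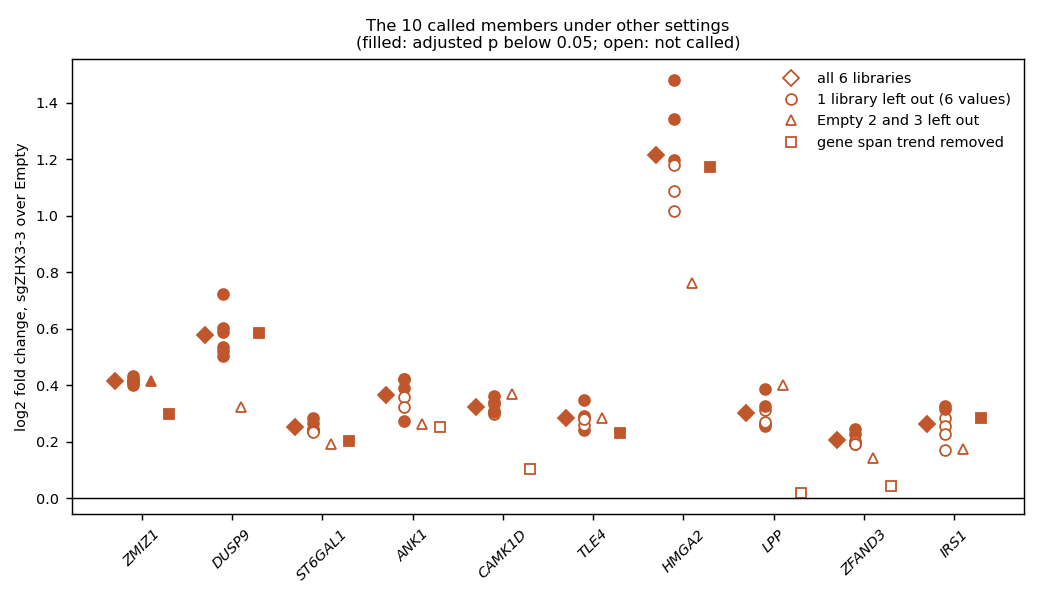
Log2 fold change (y axis, sgZHX3-3 over Empty) of the 10 called members with all libraries, with each library left out, with Empty 2 and 3 left out and with the gene span trend removed; filled symbols have an adjusted p below 0.05. ZMIZ1 is filled throughout, and the squares of LPP and ZFAND3 lie near 0.

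The stress gene level divides the Empty libraries in the same way as several members. With Empty 2 and 3 left out, 2 members were higher (ZMIZ1 and MACF1) and 0 lower, among 209 genes higher and 40 lower over the table. That comparison takes the spread of the single remaining Empty library to be that of the other group. The folds of TLE4, CAMK1D and LPP were as large or larger against Empty 1 alone (0.29, 0.37 and 0.40), while those of DUSP9, HMGA2, ANK1, IRS1, ST6GAL1 and ZFAND3 were smaller. The part of the stress genes in these values was not tested.

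Genes of other type 2 diabetes loci and of pathways joined to the members were read in the same fit, from lists chosen with earlier results of these data known. Of 46 other genes at such loci, including core beta cell genes, 40 were tested, 11 were higher and 1 lower, with a median log2 fold change of 0.08. Over all genes tested, 7.11% were higher and 4.98% lower. The 5 with the smallest adjusted p were the KATP channel subunit ABCC8 (0.49, edgeR adjusted p = 7.08e-05), the receptor phosphatase PTPRD (0.50, 0.00265), the monocarboxylate transporter SLC16A11 (0.62, 0.00522), the dipeptidase PEPD (0.33, 0.00989) and the laminin chain LAMA1 (0.74, 0.0106). No omitted library ended the call of ABCC8, nor did the span fit. PTPRD was at 0.03 once the span trend had been removed, SLC16A11 lost its call with Empty 2 and 3 left out (0.226), PEPD without Empty 2 (0.0614), Empty 3 (0.0662) or both (0.357), and LAMA1 without sgZHX3-3 library 2 (0.0620). SSR1, a subunit of the translocon-associated complex of the endoplasmic reticulum and named after its value was seen, was the lower one (-0.19, 0.0212); it lost its call without sgZHX3-3 library 2 (0.113), Empty 2 (0.0912), Empty 3 (0.103) or both of these (0.241). The list's counts were 4 higher and 0 lower without sgZHX3-3 library 2, Empty 2 or Empty 3, and 3 and 0 with Empty 2 and 3 left out.

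Of 14 tested TCF/LEF factors, further Groucho genes and Wnt targets, 4 were higher and 0 lower, against 7.11% and 4.98% of all genes tested. The counts were 6 and 0 at an unadjusted p below 0.05, and 4 and 0 with DESeq2 or limma-voom. The 4 higher genes were the corepressor genes TLE2 (log2 fold change 0.33, edgeR adjusted p = 0.0151) and AES, now named TLE5 (0.22, 0.0498), the islet factor ISL1 (0.23, 0.0429) and the prohormone convertase PCSK2 (0.33, 0.0267). ISL1 and PCSK2 have been reported to depend on TCF7L2 in beta cells. TLE3 (0.05) and the feedback gene AXIN2 (-0.09) did not pass, and LEF1 and TCF7L1 were too low to test. PCSK2 lost its call in the span fit (0.21, edgeR adjusted p = 0.141). With the replicate number as a block, 0 genes of this list were called. This list had 0 higher members without sgZHX3-3 library 2, sgZHX3-3 library 3, Empty 2 or Empty 3, and 0 with Empty 2 and 3 left out. A further list held IGF2BP, LIN28 and HMGA genes, with the growth factor IGF2 added, and 4 of its genes were tested. Of these, IGF2BP3 (log2 fold change 0.23, edgeR adjusted p = 0.0274) and IGF2 (0.46, 0.000492) rose, against 7.11% of all genes tested. LIN28B (-0.09) and HMGA1 (0.12) did not pass. IGF2BP3, at 44.3 CPM in sgZHX3-3 and 37.9 CPM in Empty, lost its call without sgZHX3-3 library 1 (0.0638), sgZHX3-3 library 2 (0.146), Empty 2 (0.0874) or Empty 3 (0.133), and with Empty 2 and 3 left out (0.20, 0.330). In the span fit IGF2BP3 also lost its call (0.17, edgeR adjusted p = 0.0870). IGF2 shares the readthrough gene INS-IGF2 with the insulin gene and is uncertain. Of 13 tested genes of insulin receptor signalling around IRS1, the receptor IGF1R rose (log2 fold change 0.25, edgeR adjusted p = 0.0176) and 0 fell. That is 7.69% of the list, near the 7.11% of all genes tested that were higher. The counts were 2 and 0 at an unadjusted p below 0.05, and 1 and 0 with DESeq2 or limma-voom. IRS2 (-0.01) and INSR (0.06) did not pass, and IGF1R lost its call without sgZHX3-3 library 2 (0.0692) or Empty 3 (0.0762), with Empty 2 and 3 left out (0.36, 0.0550) and in the span fit (0.10, 0.322).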

How the data were processed

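RNA was measured in 6 libraries of EndoC-βH1. Total RNA was extracted with a NucleoSpin kit and made into stranded NEBNext libraries, per the labels' protocols. The submitters' processing notes name STAR, featureCounts and hg38; no version, annotation, strand setting or rule for multimapping reads was found. The deposited table holds raw counts with a gene symbol per row, per the file headers, and columns were joined to samples by group and replicate letter.

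From these counts, filterByExpr of edgeR 4.0.16 (minimum count 10, minimum total 15) left 16199 genes, scaled by TMM (factors 0.984 to 1.02). Groups were compared across all genes with the robust quasi-likelihood test, group as the only term, Benjamini-Hochberg adjustment over all genes and a threshold of 0.05. The standard error of a log2 fold change is its size divided by the square root of F. CPM uses TMM library sizes. Coordinates, span and exon length come from GENCODE release 29 (GRCh38), which holds 90.2% of the table's symbols, and promoter windows from RefSeq (GRCh38.p14). A count of 0 allows up to 3 counts; such limits cover counting error only. Ratios within libraries were compared by two-sided exact permutation; the TLE4 to TLE1 ratio was chosen after its values were seen.

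Values in every library are given for called members, members of shared loci, TCF7L2 and the 2 uncalled members with the smallest adjusted p, by rule; others were added after their values were seen. In each list up to 5 called genes are named, with others as background. The members and lists were chosen with earlier results of these data known. On simulated counts for this comparison (200 changed genes among 16092 tested), the test called 44.9% of the 1.25-fold, 83.8% of the 1.5-fold and 98.4% of the 2-fold changes. Of its 160 calls, 10 were false. The data gave many more calls, 1958 of 16199 genes, so these rates need not hold for them. DESeq2 1.42.0 and limma 3.58.1 (voom) served as alternatives, under R 4.3.3; ratios and figures used Python 3.11.15 with scipy 1.17.1 and matplotlib 3.10.9.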

Additional observations from a re-analysis of the deposited data

How the results depend on the processing

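No called member changed sign under any of the 15 alternatives that gave it a value: RLE size factors, library totals as the only scaling, 2 other low-count filters, DESeq2, limma-voom, replicate number as a block, a gene span trend removed, each library left out, and Empty 2 and 3 left out. HMGA2 had no value under a filter of 1 CPM in 3 libraries, which it did not pass. A threshold of 0.01 was also read. Of 590 recomputed member values, 519 stayed on their side of the threshold with the same sign, 41 lost a call, 10 gained one and 20, all of members without a call, changed sign. Members called higher numbered 6 with the span trend removed, 2 with Empty 2 and 3 left out, 3 at an adjusted p below 0.01, and from 3 (without sgZHX3-3 library 2 or Empty 3) to 14 (without Empty 1) with 1 library left out. Over all genes, 467 were higher and 194 lower at 0.01, 209 and 40 with Empty 2 and 3 left out, and 474 to 1792 higher and 184 to 1499 lower with 1 library left out; library totals gave 1272 lower. The cause of these moves was not tested, except that fewer libraries enter the fits that leave some out and the threshold of 0.01 is stricter.

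Same-numbered libraries of the 2 groups did not deviate together (correlations -0.138, 0.0685 and -0.142). The largest correlation, 0.233, was that of sgZHX3-3 library 3 with Empty 1. With 3 libraries in a group, such values cannot show whether same-numbered libraries were handled together. With the replicate number as a block, 5 members were higher (CAMK1D, DUSP9, ST6GAL1, TLE4 and ZMIZ1), with 516 genes higher and 239 lower in all. The block ended the calls of HMGA2, ANK1, LPP, ZFAND3 and IRS1.

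The changes of sign were these log2 fold changes. With Empty 2 and 3 left out, TLE1 was at -0.0076, IDE at 0.013, THADA at 0.011, C2CD4A at -0.11 and C2CD4B at -0.041. With library totals only, JAZF1 was at -0.0025 and FTO at -0.029. With the span trend removed, JAZF1 was at -0.14, CDKAL1 at -0.12, FTO at -0.20 and MACF1 at -0.016. With 1 library left out, JAZF1 ranged from -0.023 to 0.071, FTO from -0.018 to 0.052, TSPAN8 from -0.30 to 0.14 and THADA from -0.029 to 0.016. Depth limits BCL11A, HHEX, HMGA2, TSPAN8, CILP2, TMEM154, IGF2BP2 and AP3S2, whose standard errors exceed 0.2.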
